A study of Homo sapiens with 12 samples.

Results

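The genes of ISG15 conjugation and of the PARP9-DTX3L system were followed in A549 cells, an established human lung adenocarcinoma line that grows attached to the dish. The set holds 10 genes, found by their symbols among the 58735 genes of the count table: ISG15, USP18, HERC5, HERC6, UBA7, UBE2L6, PARP9, DTX3L, PARP12 and PARP14. All 10 passed the low-count filter, which left 17829 genes for testing. RNA-Seq had been done on 4 groups of 3 libraries: attached control cells, attached GFI1-expressing cells, floating control cells and floating GFI1-expressing cells. GFI1, a zinc-finger repressor best known from the blood lineage, was introduced with a lentivirus that also carried eGFP, under the hPGK promoter, and transduced cells were sorted by GFP. Floating cells had been kept in suspension by force for 48 hours, and all groups grew in the same serum-containing medium. The labels do not say whether control cells carried an empty vector, so GFI1 expression and transduction cannot be told apart, and the sorted cells are described as a population rather than as a clone.

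ISG15 is a small protein with a pair of ubiquitin-like folds that interferons induce and that is joined to other proteins by its own enzyme chain: UBA7 activates it, UBE2L6 carries it and HERC5 attaches it, while USP18 takes it off again. PARP9 and DTX3L form a complex that joins an ADP-ribosyltransferase-family protein to a ubiquitin ligase, and PARP12 and PARP14 transfer single ADP-ribose units to other proteins. These genes are best known as interferon-stimulated genes of antiviral defence, which epithelial cells of the airway can switch on.

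The libraries held 17014188 to 20748677 counts each. Each of the 6 control libraries had 4 to 12 counts of GFI1 and each of the 6 GFI1 libraries 5154 to 12796, so none went against the GFI1 part of its label. The 6 epithelial markers were all detected, and their summed level, in CPM (counts per library, made comparable by scaling), was 10386 to 10986 in attached control and 4222 to 4339 in attached GFI1 libraries. In floating cells this sum was 6529 to 6938 in control and 3039 to 3411 in GFI1 libraries. KRT8, KRT18 and KRT7 made up most of the sum, averaging 5769, 2670 and 2077 CPM in attached control libraries. In attached GFI1 cells 5 of the 6 were lower, from KRT7 (log2 fold change -0.23 ± 0.04, SE) to CDH1 (-4.22 ± 0.07). KRT19 was higher there (0.82 ± 0.32) and was not called in floating cells, where the other 5 were lower. The 6 blood cell markers summed to between 5.01 and 14.9 CPM in every library, and the defining markers PTPRC and CD3E had at most 1 count each in any library. The 3 endothelial markers summed to at most 0.602 CPM in control libraries and to between 3.55 and 5.52 CPM in GFI1 libraries. The lower epithelial sum and the higher endothelial sum accompany every GFI1 effect given here, and their part in these effects was not tested.

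Several of these genes are neighbours in the genome (positions on hg38 as in the count table). PARP9 (chr3:122527924-122564577, minus strand) and DTX3L (chr3:122564238-122575203, plus strand) lie head to head and overlap by 340 bases, and PARP14 follows on the plus strand (chr3:122680618-122730840). HERC6 (chr4:88378739-88443111) and HERC5 (chr4:88457117-88506163) lie side by side on the plus strand. ISG15 lies on the plus strand of chromosome 1 (chr1:1001138-1014540), USP18 on the plus strand of chromosome 22 (chr22:18149899-18177397), UBA7 on the minus strand of chromosome 3 (chr3:49805207-49813946), UBE2L6 on the minus strand of chromosome 11 (chr11:57551656-57568284) and PARP12 on the minus strand of chromosome 7 (chr7:140023744-140063721). The strand setting of the counting was not stated, so reads from the 340 shared bases of PARP9 and DTX3L cannot be told apart. USP18 has a near-identical copy, USP41, which had 0 to 4 counts in every library, and AL645608.1, an antisense gene that overlaps ISG15, had 2 to 12.

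The promoter stretches printed here show letters found in the promoters of 6 of the 10 members. RefSeq promoters (GRCh38.p14, 250 bases before to 50 bases after a gene start) were given for 8 of the 10 members, with none for USP18 and UBA7. They were searched on both strands for the core of the interferon-stimulated response element (ISRE), GAAANNGAAA. Overlapping matches were kept, and this core is present in 3.57% of all 35116 promoter windows. Of the 8 members with a window, 6 held it. Capitals mark the matched bases, in either orientation, and each stretch reads 5′ to 3′ on the strand of its gene. The stretches are chr1:1013362-1013421 for ISG15 (plus), chr3:122564322-122564351 for PARP9 (minus) and for DTX3L (plus), chr3:122680800-122680829 for PARP14 (plus), chr4:88456984-88457064 for HERC5 (plus) and chr7:140062942-140062971 for PARP12 (minus).
ISG15: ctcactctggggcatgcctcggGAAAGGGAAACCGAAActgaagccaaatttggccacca
HERC5: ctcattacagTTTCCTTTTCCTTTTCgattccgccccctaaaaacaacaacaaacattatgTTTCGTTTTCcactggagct
PARP9: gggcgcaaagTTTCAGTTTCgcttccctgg
DTX3L: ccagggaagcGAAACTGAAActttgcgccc
PARP12: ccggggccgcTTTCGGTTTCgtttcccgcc
PARP14: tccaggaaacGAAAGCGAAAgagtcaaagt

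The ISG15 promoter held 2 overlapping matches, which begin at positions -113 and -107 relative to the start. The PARP9 and DTX3L matches are the same 10 bases, chr3:122564332-122564341, read from opposite strands, so the pair shares 1 match, which spans the start of DTX3L. HERC5 held 3 matches, 2 of them overlapping, and PARP12 and PARP14 held 1 each. The windows of HERC6 and UBE2L6 held none of these letters. TTCNNNGAA, the letters of a gamma-activated site, occurred in the window of PARP14 alone among the members and in 7.66% of all windows. AAATCAC, the core letters bound by GFI1 together with flanking bases, was in none of the members' windows and in 3.14% of all windows. The shorter core without these flanks was not searched, so its presence in these windows is not known. The paper's ChIP-Seq of GFI1 in A549 cells was not used here. A match describes letters in a window and was not tested as a binding site.

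All 10 genes were upregulated in GFI1-expressing cells, both attached and floating, by 1.77-fold to 37.1-fold. UBA7, the activating enzyme, had the largest rise of the set, followed by ISG15 itself. USP18, the enzyme that removes ISG15, had the smallest. In each state the 3 GFI1 libraries lay above the 3 control libraries for every one of the 10 genes, as the plot of levels by library shows. In bulk RNA, fewer expressing cells and less RNA per cell cannot be told apart, so these are levels of the population.

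**Figure D1:**
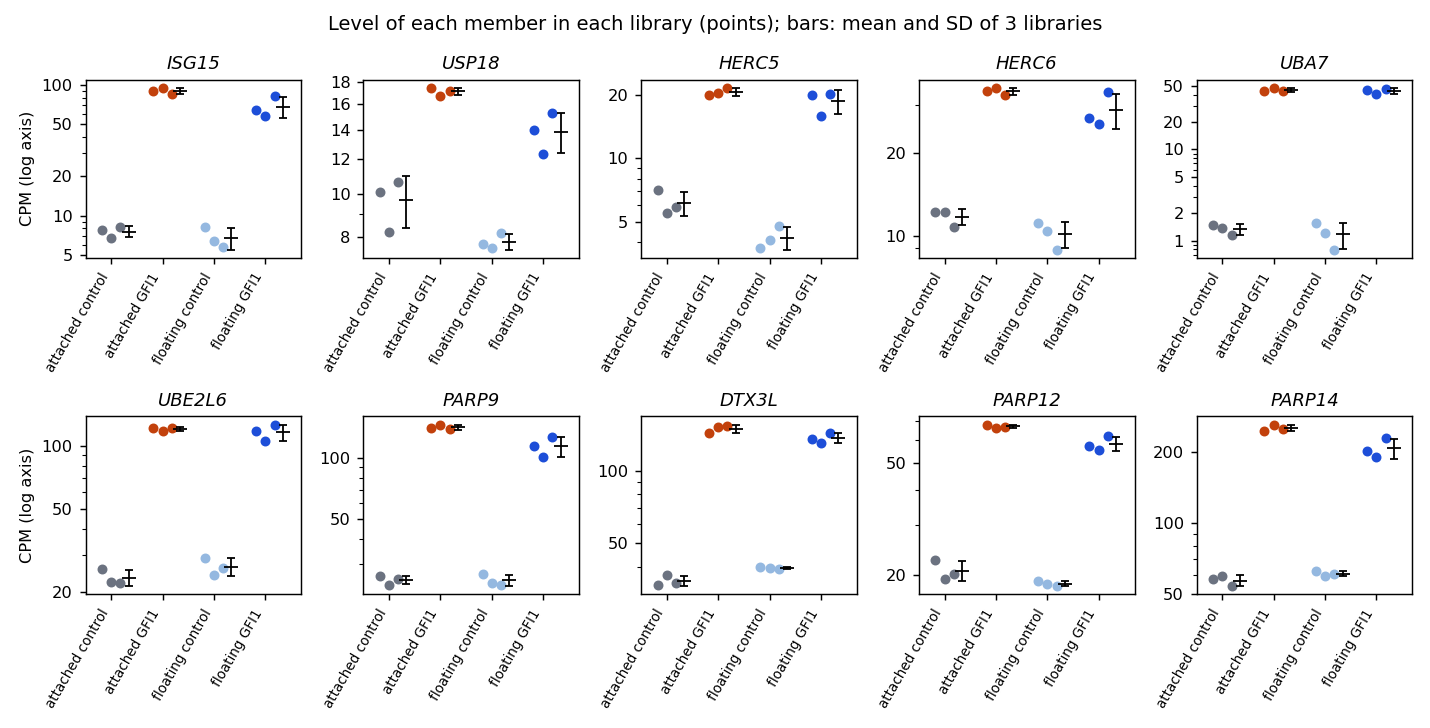
Level of each of the 10 genes in CPM (log axis) in every library of the 4 groups, with points for libraries and bars for the mean and SD of 3 libraries. The GFI1 libraries lie above the control libraries of the same state in every panel, most widely for UBA7 (1.33 CPM against 44.8 CPM in attached cells) and least for USP18.

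ISG15, the modifier itself, was at 7.80, 6.73 and 8.15 CPM in the attached control libraries and at 90.4, 94.9 and 85.0 CPM in the attached GFI1 libraries. In floating cells it was at 8.18, 6.38 and 5.72 CPM in control and at 64.8, 57.9 and 81.8 CPM in GFI1 libraries. Neither pair of groups came near overlapping, and the floating GFI1 libraries were spread more widely (68.1 ± 12.3 CPM, SD, n = 3) than the attached ones (90.1 ± 4.95 CPM, SD, n = 3). The quasi-likelihood test of edgeR, with p values adjusted by Benjamini-Hochberg here and throughout, put the GFI1 effect at 11.9-fold (log2 fold change 3.58 ± 0.11, SE, adjusted p 3.15e-19) when attached and 10.1-fold (3.34 ± 0.12, adjusted p 3.50e-18) when floating.

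UBA7, which activates ISG15 at the first step, was at 1.49, 1.36 and 1.15 CPM in attached control and at 44, 47.4 and 43.2 CPM in attached GFI1 libraries. The floating control libraries were at 1.54, 1.2 and 0.793 CPM and the floating GFI1 libraries at 45.2, 40.0 and 46.1 CPM. UBA7 was thus barely expressed without GFI1, with 14 to 26 counts in a control library, and its fold changes rest on those few counts. By edgeR's quasi-likelihood test they were 33.6-fold when attached (log2 fold change 5.07 ± 0.12, SE, adjusted p 1.23e-21) and 37.1-fold when floating (5.21 ± 0.13, adjusted p 1.42e-21).

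UBE2L6, the carrier enzyme, was already present in control cells. Its levels were 25.8, 22.4 and 22 CPM in attached control and 121.7, 117.6 and 121.7 CPM in attached GFI1 libraries. In floating cells they were 29.1, 24.1 and 26.2 CPM without GFI1 and 117.7, 104.9 and 124.8 CPM with it. The groups were clear of each other, at 5.15-fold in attached cells (log2 fold change 2.36 ± 0.07, SE) and 4.38-fold in floating cells (2.13 ± 0.07, SE).

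HERC5, the ligase that attaches ISG15 to new proteins at the ribosome, was a lowly expressed gene, at 7.03, 5.48 and 5.85 CPM in attached control and 19.9, 20.4 and 21.6 CPM in attached GFI1 libraries. After suspension it was at 3.73, 4.09 and 4.76 CPM in control and 19.9, 15.8 and 20.1 CPM in GFI1 libraries. The GFI1 levels of both states overlapped, while the floating control libraries were all below the attached ones. The GFI1 effect was 3.38-fold (log2 fold change 1.76 ± 0.11, SE) in attached and 4.43-fold (2.15 ± 0.12, SE) in floating cells. HERC6, the neighbour and close relative of HERC5, averaged 11.7 ± 0.807 CPM in attached control and 33.5 ± 1.01 in attached GFI1 libraries. The floating averages were 10.1 ± 1.12 and 28.6 ± 4.23 CPM (SD, n = 3 each). Its GFI1 effects were 1.52 ± 0.10 attached and 1.5 ± 0.10 floating (log2 fold change, SE).

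USP18, which cleaves ISG15 from its targets and also dampens signalling of the type I interferon receptor, was at 10.1, 8.20 and 10.7 CPM in attached control and at 17.4, 16.8 and 17.2 CPM in attached GFI1 libraries. In floating cells it was at 7.71, 7.52 and 8.16 CPM in control and at 14.0, 12.4 and 15.3 CPM in GFI1 libraries. Every GFI1 library was above every control library of either state, from 12.4 CPM in the lowest GFI1 library against 10.7 CPM in the highest control library. The GFI1 effect was 1.77-fold when attached (log2 fold change 0.83 ± 0.10, SE, adjusted p 1.05e-07) and 1.78-fold when floating (0.83 ± 0.11, adjusted p 2.80e-07) by edgeR's quasi-likelihood test.

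PARP9, a family member that reads ADP-ribose through its macrodomains, was at 26.3, 23.8 and 25.4 CPM in attached control and at 140.6, 146.2 and 138.3 CPM in attached GFI1 libraries. In floating cells it was at 27.0, 24.4 and 23.9 CPM without GFI1 and at 115.0, 101.5 and 126.6 CPM with it. The control levels of both states overlapped, and all floating GFI1 libraries were below all attached GFI1 libraries. The GFI1 effect was 5.63-fold in attached cells (log2 fold change 2.49 ± 0.07, SE) and 4.57-fold in floating cells (2.19 ± 0.07, SE).

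DTX3L, the ubiquitin ligase partner of PARP9, was at 33.6, 36.9 and 34.2 CPM in attached control and at 143.4, 152.9 and 154.1 CPM in attached GFI1 libraries. The floating control libraries, at 39.9, 39.7 and 39.0 CPM, were all above the attached control libraries. The floating GFI1 libraries were at 136.1, 131.3 and 143.8 CPM. The GFI1 effect was 4.30-fold in attached cells (log2 fold change 2.10 ± 0.05, SE) and 3.47-fold in floating cells (1.79 ± 0.05, SE).

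PARP14, a large macrodomain ADP-ribosyltransferase of cytokine signalling, was at 57.6, 59.5 and 53.8 CPM in attached control and at 247.2, 262.4 and 250.2 CPM in attached GFI1 libraries. Floating control libraries were at 62.7, 59.8 and 60.5 CPM, and floating GFI1 libraries at 201.7, 191.8 and 230.0 CPM. The floating libraries were thus all above the attached ones without GFI1, a difference that was not called (log2 fold change 0.10 ± 0.06, SE), and all below them with GFI1. The GFI1 effect was 4.45-fold in attached cells (log2 fold change 2.15 ± 0.06, SE) and 3.41-fold in floating cells (1.77 ± 0.06, SE). PARP12, a zinc-finger ADP-ribosyltransferase that restricts viruses, averaged 20.7 ± 1.73 CPM in attached control and 67.2 ± 0.936 in attached GFI1 libraries. The floating averages were 18.7 ± 0.429 and 58.2 ± 3.41 CPM (SD, n = 3 each), and the GFI1 effects were 1.70 ± 0.06 attached and 1.64 ± 0.06 floating (log2 fold change, SE).

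**Figure D2:**
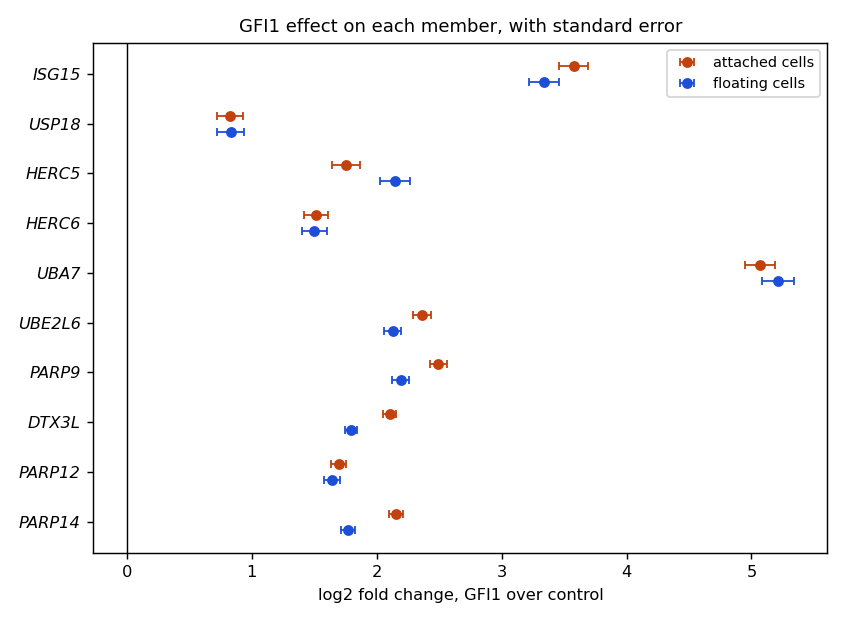
GFI1 effect on each gene as the log2 fold change against control libraries, in attached and in floating cells, with points for the fitted value and bars for its standard error. Every point lies right of 0, from 0.83 for USP18 to 5.21 for UBA7 in floating cells.

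In the same edgeR model, 10 of 10 members were higher in attached GFI1 cells (adjusted p 1.18e-21 to 1.05e-07), where 29.5% of all tested genes were higher and 32.8% lower. In floating cells 10 of 10 were higher (adjusted p 1.42e-21 to 2.80e-07), beside 29.3% of tested genes higher and 31.1% lower. All GFI1 libraries exceeded all control libraries in 10 of 10 members in each state, against 32.2% of tested genes in attached and 31.7% in floating cells. The members' median log2 fold change was 2.13 attached and 1.96 floating, against -0.0066 and 0.011 over all tested genes. Over the tested genes, 12.9% had a log2 fold change above that of USP18 in attached cells, and 2.64% had one above the members' median. P values measure the spread between these libraries, which may be technical, since the labels name no separate cultures.

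Levels of different genes were set against each other per kilobase of gene model, whose length was 8938 bases for PARP9 and 5868 for DTX3L. A gene model can be longer than the transcript expressed, so the orders and the ratio levels given below depend on these lengths. On this scale UBE2L6 was the highest member in attached control cells at 10.7 ± 0.944 CPM per kb (SD, n = 3). It was followed by ISG15, DTX3L, PARP14, USP18, PARP12, PARP9, HERC6 and HERC5, with UBA7 lowest at 0.293 ± 0.0378 CPM per kb. With GFI1, ISG15 moved to the top at 95.7 ± 5.26 CPM per kb, UBE2L6 came second at 54.8 ± 1.10, and UBA7 moved from the last place to the seventh at 9.87 ± 0.489 (SD, n = 3 each). USP18 moved from the fifth place to the eighth, at 8.04 ± 0.155 CPM per kb, and HERC5 was lowest at 4.33 ± 0.182. In floating control cells the order was that of attached control cells, but ISG15 and DTX3L, and likewise PARP12 and PARP9, differed by less than the larger SD of the pair. In floating GFI1 cells UBA7 and PARP12 differed by less than the larger SD. All other neighbours in the 4 orders were more than 1 SD apart.

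Levels of enzyme and substrate genes changed relative to each other within each library. USP18 over ISG15, both per length, was at a log2 ratio of -0.80, -0.89 and -0.79 in attached control and of -3.55, -3.68 and -3.48 in attached GFI1 libraries. In floating cells it was at -1.26, -0.94 and -0.67 in control and at -3.39, -3.41 and -3.60 in GFI1 libraries. There was thus less USP18 RNA per ISG15 RNA in every GFI1 library. UBA7 over UBE2L6, the activating over the carrier enzyme, went the other way, with a mean log2 ratio of -5.19 ± 0.11 in attached control against -2.47 ± 0.10 in attached GFI1 libraries, and of -5.59 ± 0.44 against -2.45 ± 0.03 for the floating groups (SD, n = 3 each). HERC5 over HERC6 was -0.66 ± 0.18 against -0.42 ± 0.10 when attached and -0.99 ± 0.34 against -0.34 ± 0.17 when floating. PARP9 over DTX3L, the complex partners, was -1.08 ± 0.14 against -0.69 ± 0.07 when attached and -1.27 ± 0.08 against -0.87 ± 0.10 when floating (SD, n = 3 each). Groups did not overlap in these 8 comparisons, and each gave a two-sided exact permutation p of 0.1, the smallest that 3 against 3 libraries allow (0.178 adjusted over the 16 comparisons of ratios).

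The members differed far less between floating and attached libraries than between GFI1 and control libraries. In control cells, edgeR's quasi-likelihood test called DTX3L higher (log2 fold change of floating over attached 0.18 ± 0.06, SE, adjusted p 0.0134) and HERC5 (-0.54 ± 0.14, adjusted p 0.00405) and USP18 (-0.31 ± 0.11, adjusted p 0.0344) lower. The other 7 were not called, among them ISG15 at -0.16 ± 0.16 (95% interval of the fold 0.715 to 1.12). These counts of 1 higher and 2 lower stand beside 19.6% of tested genes higher and 20.5% lower. The USP18 call was lost when libraries were scaled by size only (adjusted p 0.0532), by DESeq2 (0.0862) and without any one of attached control replicate 1 or 3 or floating control replicate 1 or 2 (up to 0.167). The DTX3L call was lost without attached control replicate 1 (0.0675) or 3 (0.0576), and the number of members called fell to 1 without attached control replicate 3. UBE2L6 was called higher without attached control replicate 1, floating control replicate 2 or floating GFI1 replicate 2 (adjusted p 0.0263 to 0.0395), and also when only the 2 groups compared were fitted (log2 fold change 0.18, adjusted p 0.0472).

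In GFI1-expressing cells, 7 of the 10 members were lower after suspension and 0 higher, where 16.3% of tested genes were lower and 15% higher. ISG15 fell most (log2 fold change -0.40 ± 0.08, SE, adjusted p 0.000597), followed by PARP9 (-0.31 ± 0.06, adjusted p 0.000166), USP18 (-0.30 ± 0.10, adjusted p 0.0174) and PARP14 (-0.28 ± 0.05, adjusted p 0.000127). HERC6 (-0.23 ± 0.08, adjusted p 0.0439), PARP12 (-0.21 ± 0.05, adjusted p 0.00493) and DTX3L (-0.13 ± 0.04, adjusted p 0.0270) were also called lower by edgeR's quasi-likelihood test. HERC5 was at -0.15 ± 0.10, UBE2L6 at -0.05 ± 0.06 and UBA7 at -0.03 ± 0.07, and these 3 were not called. The count of members called fell to 4 without attached GFI1 replicate 3 or without floating GFI1 replicate 2. The HERC6 call was lost in 4 of 9 other settings and in the fits without attached control replicate 1 or 2, floating control replicate 2, any attached GFI1 library or floating GFI1 replicate 1 or 2, with an adjusted p of up to 0.166. The DTX3L call was lost in 2 of 9 other settings and without attached GFI1 replicate 2 or 3 or floating GFI1 replicate 1 or 2 (up to 0.147). The USP18 call was lost without attached GFI1 replicate 1 or 3 or floating GFI1 replicate 2 (up to 0.0811).

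The introduced gene moved the other way with suspension. GFI1 was at 290.4, 294.4 and 285.6 CPM in attached GFI1 libraries and at 544.6, 705.5 and 430.2 CPM in floating GFI1 libraries, a log2 fold change of 0.95 ± 0.10 (SE). Among the floating GFI1 libraries, replicate 2 had the highest GFI1 level and the lowest level of all 10 members. Replicate 3 had the lowest GFI1 level and the highest level of all 10 members. Of all tested genes, 35.5% were lowest in replicate 2 and 34.7% highest in replicate 3. Replicates 2 and 3 also differed more over the tested genes than any other pair within a group (chi-square per gene 11.2). In attached GFI1 libraries, where GFI1 levels were close together, no replicate was highest for more than 5 members. With 3 libraries this is a description, and the part of GFI1 dose in the members' levels was not tested.

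The 3 clustered genes of chromosome 3 rose less with GFI1 in floating than in attached cells. The difference between the GFI1 effects (floating minus attached, log2) was -0.38 ± 0.08 for PARP14 (adjusted p 0.00207), -0.31 ± 0.07 for DTX3L (adjusted p 0.00534) and -0.30 ± 0.10 for PARP9 (adjusted p 0.0492), by the interaction term of edgeR's quasi-likelihood model (SE). These 3 of 10 members stand beside 6.01% of tested genes with a lower and 4.76% with a higher GFI1 effect in floating cells. The PARP9 call was lost by DESeq2 (adjusted p 0.0524) and without any one library other than floating GFI1 replicate 3 (up to 0.173). UBE2L6 was called without floating GFI1 replicate 3 (-0.29, adjusted p 0.0411). The other 7 members were not called and ran from -0.24 for ISG15 (95% interval of the ratio of folds 0.658 to 1.09) to 0.39 ± 0.17 for HERC5 (adjusted p 0.169, interval 1.04 to 1.66). The suspension effects and their difference rest on the same libraries as the GFI1 effects.

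**Figure D3:**
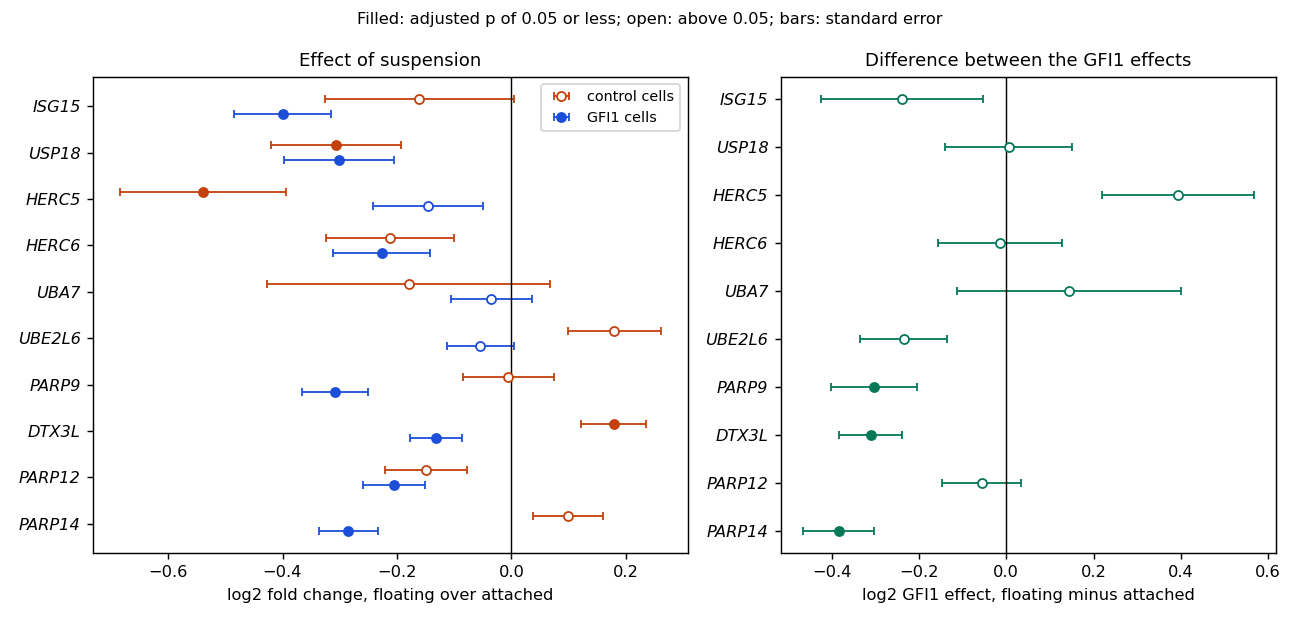
Left, log2 fold change of floating over attached libraries in control and in GFI1 cells. Right, GFI1 effect in floating minus that in attached cells, with bars for standard errors and filled points for an adjusted p of 0.05 or less. All 10 GFI1-cell points on the left lie below 0, and on the right the filled points are PARP9, DTX3L and PARP14.

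The neighbours of the members did not share their rise as a whole. Of 34 other tested protein-coding genes within 100 kb of a member, GFI1 cells had 9 higher and 9 lower when attached (median log2 fold change 0.082) and 14 higher and 10 lower when floating (median 0.048). These counts stand beside 29.5% of all tested genes higher and 32.8% lower when attached, and 29.3% and 31.1% when floating. PARP15, which lies between DTX3L and PARP14, had at most 3 counts in any library, and KPNA1, on the other side of PARP9, was at 0.54 ± 0.05 in attached and 0.62 ± 0.05 in floating cells (log2 fold change, SE). Beside the HERC pair, HERC3 was not called (-0.11 ± 0.13 and -0.08 ± 0.12), and PPM1K, a mitochondrial phosphatase gene, was at 1.81 ± 0.16 and 2.09 ± 0.16 (SE). Next to UBE2L6, SMTNL1 rose more than UBE2L6 itself, by 3.89 ± 0.30 and 2.82 ± 0.25 (SE), from at most 134 counts in a library. RTN4RL2, also near UBE2L6, was lower, at -1.52 ± 0.12 and -1.02 ± 0.12 (SE).

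Other genes of the ISG15 pathway were called in both directions. Of 7 tested, 2 were higher and 3 lower in each state, and the median log2 fold change was 0.022 when attached and -0.0064 when floating. STAT2, the signal transducer that USP18 binds, rose by 1.25 ± 0.06 (SE) in attached and 1.01 ± 0.06 in floating cells, and TRIM25, a ligase that can also use ISG15, by 0.66 ± 0.04 and 0.75 ± 0.04. ITGAL, a subunit of the integrin LFA-1 that serves as a receptor of free ISG15, fell by 3.96 ± 0.73 on the log2 scale in attached cells, from at most 17 counts in a library. In the other ubiquitin and ubiquitin-like systems, 1 of 20 tested genes was higher and 11 were lower in attached GFI1 cells (median -0.14). Of all tested genes, 29.5% were higher and 32.8% lower there. In floating GFI1 cells 1 was higher and 9 were lower (median -0.12), beside 29.3% and 31.1% of all tested genes. SUMO3, a small modifier, was at 0.15 ± 0.05 and 0.29 ± 0.05, and SAE1, a subunit of the enzyme that activates SUMO, at -0.77 ± 0.05 and -0.84 ± 0.05 (SE).

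Among 13 other tested PARP family genes, 6 were higher and 2 lower when attached (median 0.15), and 6 higher and 3 lower when floating (median 0.058). For this and the next 2 lists, the shares over all tested genes were 29.5% higher and 32.8% lower when attached. When floating they were 29.3% and 31.1%. PARP10, a mono-ADP-ribosyltransferase, averaged 3.76 ± 0.212 CPM in attached control and 73.1 ± 1.64 in attached GFI1 libraries (SD, n = 3 each), a log2 fold change of 4.28 ± 0.09 (SE, adjusted p 7.18e-23 by edgeR's quasi-likelihood test) that exceeded those of all members but UBA7. PARP2, which acts in DNA repair, fell by 1.22 ± 0.09 in attached and 1.07 ± 0.09 in floating cells (log2, SE). Of 7 genes of ADP-ribose hydrolases and their relatives, not all of which need be active enzymes, 2 were higher and 3 lower in each state. ADPRHL1 was at 1.5 ± 0.08 and 1.84 ± 0.08, and PARG, the main hydrolase of ADP-ribose chains, at -0.60 ± 0.06 and -0.53 ± 0.06 (log2 fold change, SE). Of the 8 other HERC and deltex genes, 3 were higher and 2 lower in each state, led by DTX3 at 1.22 ± 0.07 and DTX4 at -1.04 ± 0.10 in attached cells.

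The genes that lie upstream of the members in the interferon response were mixed. Of the 13 interferon genes listed for this report, only IFNE and IFNA1 passed the low-count filter, and neither was called with GFI1 in attached cells. Interferon genes outside this list were not looked at. In floating cells IFNA1 was lower with GFI1 (-1.16 ± 0.37, SE, adjusted p 0.00863 by edgeR's quasi-likelihood test), from at most 19 counts in a library. The other 11 genes of the list had at most 3 counts in any library, IFNB1 among them with at most 2. Of 14 genes of interferon signalling, 6 were higher and 5 lower when attached (median 0.31), and 8 higher and 4 lower when floating (median 0.22). Over all tested genes, 29.5% were higher and 32.8% lower when attached, and 29.3% and 31.1% when floating. IRF1, a transcription factor that binds ISRE letters, averaged 23.6 ± 0.438 CPM in attached control and 203.0 ± 8.26 in attached GFI1 libraries (SD, n = 3 each), a log2 fold change of 3.11 ± 0.05 (SE) there and 2.90 ± 0.05 in floating cells. IRF9, a DNA-binding protein of the type I interferon response, rose by 2.06 ± 0.18 (log2 fold change, SE) in attached cells. IFNGR1, a chain of the receptor for interferon gamma, was lower, at -1.63 ± 0.06 in attached and -2.11 ± 0.06 in floating cells (log2 fold change, SE).

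**Figure D4:**
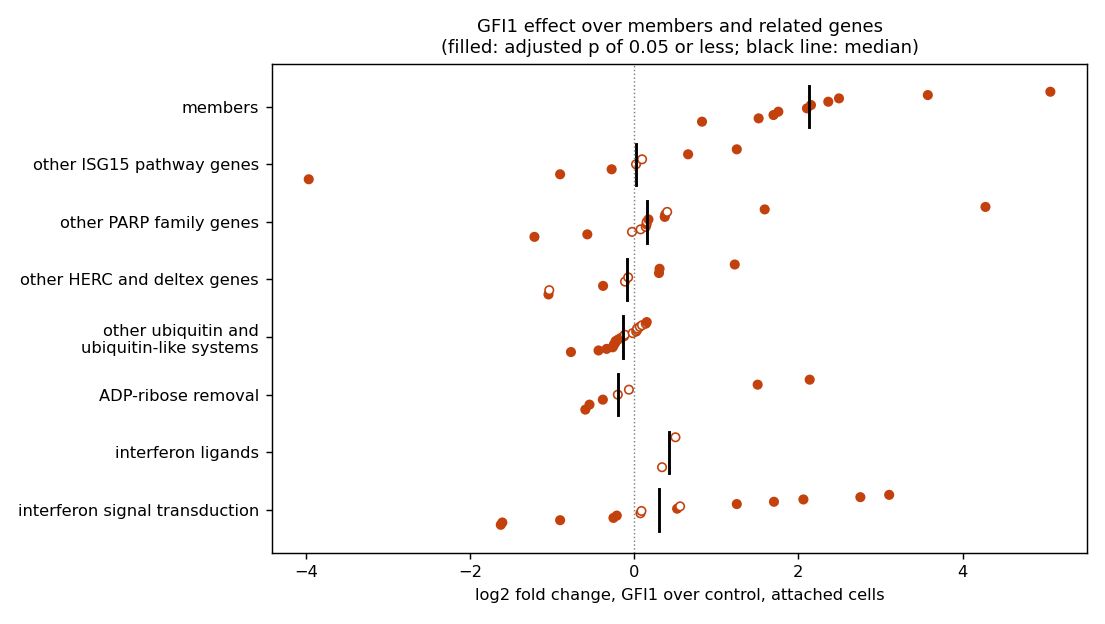
GFI1 effect in attached cells (log2 fold change against control) for the members and for 7 lists of related genes, with one point per tested gene, filled where the adjusted p was 0.05 or less, and a black line at the median of the list. The members lie wholly right of 0 with a median of 2.13, while the medians of the other lists lie between -0.20 and 0.42.

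The genes with the nearest expression profile to each member were found by the root mean square difference of centred log2 CPM over the 12 libraries, among 13248 genes. For ISG15 these were C5orf56 (0.195), DDX60L (0.211), PLPP3 (0.228), IL15RA (0.237) and CBLB (0.246). For DTX3L they were SORL1 (0.0743), PARP14 (0.0773), NLRC5 (0.0798), NUDT4 (0.108) and PSMB8 (0.11). Members were nearest to other members in 2 cases, PARP12 for HERC6 (0.128) and DTX3L for PARP14 (0.0773). The nearest gene was SLC43A2 for USP18 (0.0946), TAP2 for HERC5 (0.188) and for PARP12 (0.0754), APOL3 for UBA7 (0.208), DPYD for UBE2L6 (0.104) and HELZ2 for PARP9 (0.0946).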

How the data were processed

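The authors deposited raw gene counts, 1 whole number per gene and library, made from poly-A RNA sequenced on an Illumina NovaSeq. The study's methods name Hisat2 and featureCounts for alignment and counting, and the submitters' processing notes name Bowtie2 and HTSeq with hg38. Annotation release and strand setting are not given in the sources used here.

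Groups came from the sample labels. The counts were fitted with edgeR 4.0.16 (R 4.3.3) after filterByExpr on low counts (minimum count 10, minimum total 15) and TMM scaling (control factors 0.939 to 0.971, GFI1 factors 1.04 to 1.06), in 1 quasi-likelihood model of 4 group means over 12 libraries. The 5 contrasts were two-sided, adjusted by Benjamini-Hochberg over all 17829 genes, and called at 0.05 or less. CPM values are TMM scaled, and log2 CPM used a prior count of 2. Ratios were compared by exact permutation. The code was tested on simulated data.

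Members and lists were chosen with earlier results of these data known. All members were named, with their nearest profiles and, per list, the most strongly called riser and faller in attached cells. Other genes were named after their values were seen, and some genes of the lists are not reported here. Alternatives were DESeq2 1.42.0, other scalings and filters, robust fitting, only the groups compared, a replicate block, USP18 with USP41 summed, a prior count of 0.5 for profiles, and leaving out each library. Replicates differed by more than counting noise (chi-square per gene 1.98 to 11.2). Pairs of floating GFI1 libraries differed most, at 4.64, 4.78 and 11.2, against at most 3.52 in the other groups.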

Additional observations from a re-analysis of the deposited data

Results flagged for a closer look

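For PARP9, DTX3L and PARP14 the GFI1 effect differed between attached and floating cells by a test of the difference itself, the interaction term of edgeR's quasi-likelihood model with Benjamini-Hochberg adjustment. The effect in floating minus that in attached cells was -0.30 for PARP9, -0.31 for DTX3L and -0.38 for PARP14 on the log2 scale, in 3 libraries per group. The PARP9 call was marginal (adjusted p 0.0492 by that test). It was lost by DESeq2 (adjusted p 0.0524) and in 11 of the 12 fits that left out a library. The GFI1 level was itself higher in floating than in attached GFI1 libraries, as given above, and its part in these differences was not tested.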

How the results depend on the processing

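The GFI1 effects on the 10 members kept their direction and their call in every alternative run (211 values in attached and 211 in floating cells). The suspension effects and the difference between GFI1 effects are smaller and depended more on the settings, with 8 and 5 values that lost or gained a call in control cells, 21 and 0 in GFI1 cells, and 12 and 1 for the difference. When single libraries were left out, the number of members called ran from 1 to 4 for suspension in control cells, from 4 to 7 for suspension in GFI1 cells and from 2 to 4 for the difference. Values that changed sign were close to 0 and not called, and the cause was not tested. For PARP9 after suspension of control cells these were 0.0016 with RLE size factors, 0.015 with upper quartile scaling, 0.015 with library size only and 0.0075 with at least 10 counts in every library. For the USP18 difference they were -0.0062 (RLE size factors), -0.013 (library size only), -0.0026 (at least 10 counts), -0.0014 (replicate block) and -0.0031 (DESeq2), and for the HERC6 difference 0.0038 (no filter). Without single libraries, the suspension effect in control cells ran from -0.063 to 0.028 for PARP9 and from -0.42 to 0.045 for UBA7, and that in GFI1 cells from -0.075 to 0.012 for UBA7. The difference between GFI1 effects ran from -0.071 to 0.12 for USP18, -0.14 to 0.057 for HERC6 and -0.079 to 0.39 for UBA7. With the replicate number as a block, 10, 10, 4, 6 and 3 members were called in the 5 contrasts in the order of the report, UBE2L6 being gained (suspension in control cells, adjusted p 0.0465 by edgeR's quasi-likelihood test) and HERC6 lost (suspension in GFI1 cells, 0.0526). Same-numbered libraries did not deviate together over the tested genes (correlations of -0.016 to 0.0089). Counting noise is part of these deviations, so the correlations cannot exclude that libraries are paired by number. The difference was not run with only the groups compared, since it uses all 4. With a prior count of 0.5, 8 of 10 nearest genes were the same, with KANK2 for USP18 and TNFSF13B for UBA7. The low counts of UBA7 in control cells limit the precision of its folds.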
